A study of Mus musculus with 6 samples.

Results

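The genes described here encode the proteins of the mitochondrial ribosome, measured by RNA sequencing in adipocytes that were differentiated in culture from 3 mouse fat depots. They were taken as every row of the deposited count table whose symbol starts with Mrpl or Mrps and a number, which gave 77 of 20295 genes, and 76 of them passed the filter on low counts that left 11732 genes for testing. By their known place in the mammalian mitoribosome, 50 belong to the large subunit and 26 to the small subunit. Mrps36, which carries a ribosomal name but is known as a subunit of the mitochondrial 2-oxoglutarate dehydrogenase complex, was kept apart. The groups were brown fat (BAT), inguinal white fat (iWAT) and epididymal white fat (eWAT), with 2 libraries each. The donors of all 3 groups were NMRI males, 4 to 5 weeks old, and BAT stands for a pool of interscapular, cervical and axillary fat. Collagenase freed the stromal-vascular fraction, the precursor-rich mixture left once mature adipocytes are removed. Every group was cultured at 37 °C in DMEM with 10% newborn calf serum, 30 nM insulin, 1 µM rosiglitazone (an agonist of the adipogenic receptor Pparg), 25 µg/ml ascorbate, 10 mM HEPES, 4 mM glutamine, 100 µg/ml streptomycin and 62.5 µg/ml penicillin. The labels give harvest at 8 days after plating, while the tags of the samples name day 7. Cultures had to be over 50% differentiated, so undifferentiated cells could remain in them. The labels do not say that the replicates were separate animals or cultures, so p-values measure only the spread between these libraries, which may be technical.

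Mitochondria keep their own ribosomes, which translate the few proteins encoded in mitochondrial DNA, all of them subunits of the respiratory chain and ATP synthase. The ribosomal RNAs come from mitochondrial DNA, whereas every ribosomal protein is encoded in the nucleus, made in the cytosol and imported. Part of these proteins have counterparts in bacterial ribosomes, and others were added in the mitochondrial lineage. Brown adipocytes are rich in mitochondria and oxidise fat for heat through the uncoupling protein Ucp1.

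The 77 genes were spread over 17 chromosomes, with 10 on chromosome 11. In the coordinates of the files (mouse build mm9), 24 of 77 members (31.2%) had a gene on the opposite strand starting within 1000 bases of their own start, against 13.6% of all tested genes. The only such pair in which both genes are members was Mrpl46 and Mrps11 on chromosome 7. They are a large and a small subunit gene whose starts lay 41 bases apart in opposite directions. RefSeq promoter windows (250 bases before to 50 after each start, build GRCm38.p6) matched 68 members by symbol. A motif of the nuclear respiratory factor NRF1 (CGCANGCG, both strands) was in a window of 29.4% of these members, against 20.0% of tested genes with a window. The ETS-type motif of GABPA (CCGGAAGT, both strands) was found in 17.6% of members and 9.2% of tested genes, and the motif of YY1 (AANATGGCG, both strands) in 14.7% and 6.19%. The E-box CACGTG occurred in 7.35% of members and 12% of tested genes, and TCAAGGTCA, the motif of estrogen-related receptors, in 0 of 68 members and 0.303% of tested genes. Over all promoters of the RefSeq table the shares were 9.22% for NRF1, 4.31% for GABPA, 2.76% for YY1, 8.09% for the E-box and 0.466% for the receptor motif. These motifs are letter matches in a fixed window, not sites of measured binding, and the median GC content of the windows was 58.5% in members and 60.7% in tested genes.

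The sequences below are shown for 4 genes called higher in BAT than in eWAT whose upstream stretch held a motif, and for the stretch shared by Mrpl46 and Mrps11. They run 5′ to 3′ over the 130 bases before the start on the strand of the gene (the shared stretch is the 41 bases between the starts, read on the plus strand), with coordinates in GRCm38.p6 from RefSeq. Capitals mark the NRF1 motif in Mrpl30 and Mrpl39, the GABPA motif in Mrpl51, and in Mrpl36 the E-box followed by the YY1 motif on the opposite strand.
Mrpl30 (chr1:37890347-37890476, plus strand): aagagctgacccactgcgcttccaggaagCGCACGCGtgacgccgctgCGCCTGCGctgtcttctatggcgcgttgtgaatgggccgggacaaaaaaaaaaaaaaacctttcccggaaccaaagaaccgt
Mrpl39 (chr16:84735245-84735374, minus strand): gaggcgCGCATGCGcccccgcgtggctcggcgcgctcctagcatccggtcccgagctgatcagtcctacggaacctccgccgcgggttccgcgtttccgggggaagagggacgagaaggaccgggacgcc
Mrpl51 (chr6:125192070-125192199, plus strand): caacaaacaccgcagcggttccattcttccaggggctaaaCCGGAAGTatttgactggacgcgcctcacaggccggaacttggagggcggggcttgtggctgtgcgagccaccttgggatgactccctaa
Mrpl36 (chr13:73330879-73331008, plus strand): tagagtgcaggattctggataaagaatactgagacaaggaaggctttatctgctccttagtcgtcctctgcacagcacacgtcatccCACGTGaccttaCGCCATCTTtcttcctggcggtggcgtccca
Between Mrpl46 and Mrps11 (chr7:78783090-78783130, plus strand): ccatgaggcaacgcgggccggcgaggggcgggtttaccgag
Counted from the start, the NRF1 matches of Mrpl30 began at -101 and -82, that of Mrpl39 at -124, the GABPA match of Mrpl51 at -90, and the matches of Mrpl36 at -43 and -31. The 41 bases between Mrpl46 and Mrps11 held none of the 5 motifs. The median log2 fold change of BAT over eWAT was 0.69 for the 20 tested members with an NRF1 motif and 0.74 for the 47 without, and 0.65 for the 12 with a GABPA motif and 0.76 for the 55 without. For YY1 it was 0.79 for the 10 with the motif and 0.71 for the 57 without, and for the E-box 0.74 for the 5 with it and 0.73 for the 62 without. These differences were not tested.

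Total counts ran from 2889038 to 4807449 per library, at which a count of 3 equalled 0.634 to 1.15 CPM (read counts scaled to a common library total with TMM factors). The members together took 0.510% and 0.605% of all counts in the BAT libraries, 0.381% and 0.432% in the iWAT libraries, and 0.362% and 0.394% in the eWAT libraries. Their summed level was 5180 and 6680 CPM in BAT, 3894 and 4188 CPM in iWAT, and 3453 and 3773 CPM in eWAT. The depots thus did not overlap in the summed level, and the second BAT library stood highest. The brown marker Ucp1 had 4924 and 9294 CPM in BAT, 1114 and 995 CPM in iWAT, and 59.6 and 62.9 CPM in eWAT, so the second BAT library was also the higher one for Ucp1. In bulk RNA, fewer cells of a type and less RNA per cell cannot be told apart.

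**Figure D1:**
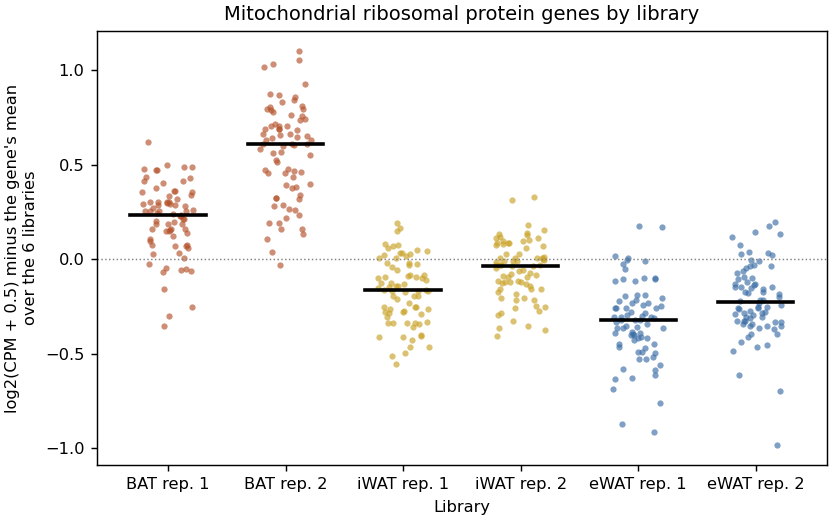
Each point is 1 of the 76 tested mitochondrial ribosomal protein genes, plotted as its log2(CPM + 0.5) minus its own mean over the 6 libraries (y axis), by library (x axis), and black bars are medians. The medians were 0.24 and 0.61 in the BAT libraries, -0.16 and -0.04 in the iWAT libraries, and -0.32 and -0.23 in the eWAT libraries.

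The first comparison asked how BAT-derived adipocytes differ from eWAT-derived ones. Most members were higher in BAT: the median log2 fold change over the 76 tested members was 0.73, which is 1.66-fold, against -0.03 over all tested genes. The quartiles of the members lay at 0.51 and 0.85, 74 of 76 were fitted above 0, and 66 of 76 had both BAT libraries above both eWAT libraries, which held for 26.8% of all tested genes. Mrps6 alone had both BAT libraries below both eWAT libraries, a pattern seen in 28.5% of tested genes. By edgeR's quasi-likelihood test (adjusted p below 0.05 over all tested genes), 8 of 76 members were higher and 0 were lower in BAT, where 2.71% of tested genes were called higher and 3.75% lower. At an unadjusted p below 0.05, 50 members were higher and 0 lower, against 12.5% and 13.4% of all tested genes. The number of calls changed when single libraries were left out, both among the members and over all tested genes. Such fits keep 1 library in a depot, so only the effect size is given for them. The median log2 fold change of the members stayed between 0.52 and 0.91. With the replicate number as a block, 49 of 76 members were called higher, including the 8, and 0 lower, against 10.9% and 12.8% of all tested genes. DESeq2 called 25 higher and 0 lower, against 5.11% and 6.57% of all genes, and limma voom 4 higher and 0 lower, against 2.06% and 2.68%. In the authors' deposited table, 46 of 77 members were higher and 0 lower at an adjusted p below 0.05, where 6.58% of all its 20295 genes were higher. Unlike the other shares, this one includes the genes that the filter on low counts left out here.

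**Figure D2:**
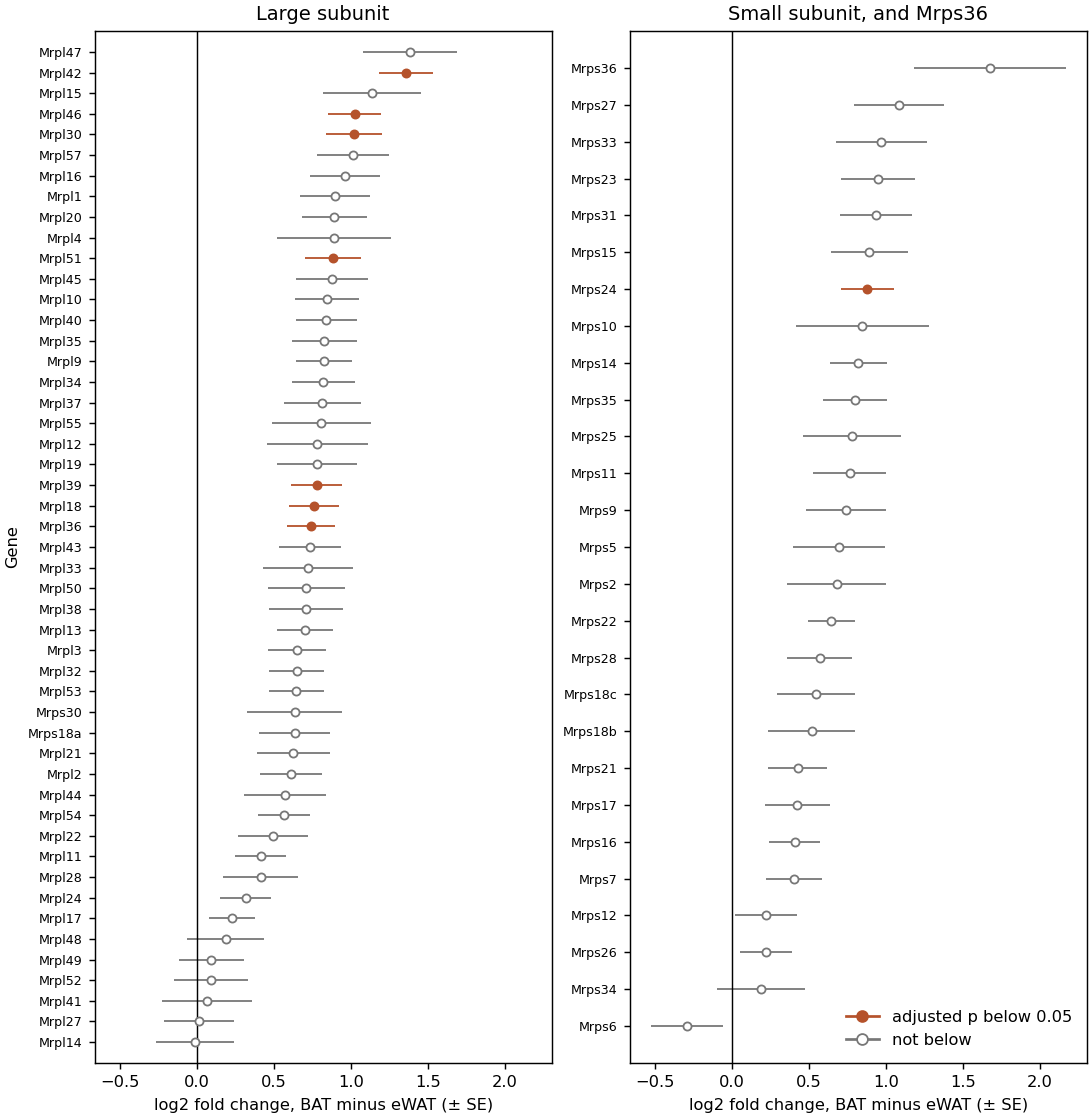
The log2 fold change of BAT minus eWAT (x axis, ± SE from the edgeR fit of 6 libraries) is shown for each of the 76 tested genes (y axis), with large subunit genes on the left and small subunit genes and Mrps36 on the right. Filled points are the 8 genes with an adjusted p below 0.05, and 74 of the 76 points lie to the right of 0.

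The large subunit held 7 of the 8 called genes, which is 14.3% of its tested genes, against 2.71% of all tested genes. Mrpl42 (NM_026065, chromosome 10, 94943440 to 94964561, minus strand, mm9) encodes a protein with no bacterial counterpart. It had 116 and 139 CPM in BAT, 71.2 and 64.9 CPM in iWAT, and 50.1 and 49.2 CPM in eWAT, so the 3 depots did not overlap. Mrpl42 was higher in BAT than in eWAT by a log2 fold change of 1.36 ± 0.17 (SE; edgeR adjusted p = 0.0209), the smallest adjusted p among the members. Mrpl46 (NM_023331, chromosome 7, 85920227 to 85927975, minus strand), which also has no bacterial counterpart, had 69.9 and 82.2 CPM in BAT, 47.4 and 50.8 CPM in iWAT, and 36.6 and 38.1 CPM in eWAT. Its log2 fold change was 1.02 ± 0.17 (edgeR adjusted p = 0.0313), again with no overlap between depots. Its head-to-head partner Mrps11 had 33.8 and 47.8 CPM in BAT, 31.8 and 32.9 CPM in iWAT, and 21.7 and 26.2 CPM in eWAT. Mrps11 was separated in the same direction between BAT and eWAT, with a log2 fold change of 0.76 ± 0.24 (edgeR adjusted p = 0.11; 0.026 with the replicate block).

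Mrpl30 (NM_027098, chromosome 1, 37947398 to 37955178, plus strand), the counterpart of a bacterial large subunit protein, had 158 and 169 CPM in BAT, 114 and 111 CPM in iWAT, and 70.6 and 90.7 CPM in eWAT. Its log2 fold change of BAT over eWAT was 1.02 ± 0.18 (edgeR adjusted p = 0.0353). Mrpl51 (NM_025595, chromosome 6, 125142218 to 125144410, plus strand), another protein without a bacterial counterpart, had 90.7 and 114 CPM in BAT, 63.7 and 60.6 CPM in iWAT, and 52.6 and 58.0 CPM in eWAT, a log2 fold change of 0.88 ± 0.18 (edgeR adjusted p = 0.0449). In both genes the 3 depots stood apart, with BAT highest and eWAT lowest. Mrpl36 (NM_053163, chromosome 13, 73468457 to 73469626, plus strand), with a bacterial counterpart, had 73.8 and 78.0 CPM in BAT, 53.6 and 57.1 CPM in iWAT, and 45.7 and 44.9 CPM in eWAT. It was higher in BAT by 0.74 ± 0.16 on the log2 scale (edgeR adjusted p = 0.0464).

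In the other two large subunit genes the values of iWAT and eWAT overlapped. Mrpl39 (NM_017404, chromosome 16, 84717825 to 84735547, minus strand), which lacks a bacterial counterpart, had 131 and 154 CPM in BAT, 89.7 and 84.2 CPM in iWAT, and 81.8 and 84.5 CPM in eWAT. Mrpl18 (NM_026310, chromosome 17, 13104221 to 13108957, minus strand), with a bacterial counterpart, had 119 and 137 CPM in BAT, 74.6 and 73.9 CPM in iWAT, and 78.0 and 73.1 CPM in eWAT. In each, both BAT libraries lay above the other 4 libraries. The log2 fold change of BAT over eWAT was 0.78 ± 0.16 for Mrpl39 and 0.76 ± 0.16 for Mrpl18 (edgeR adjusted p = 0.0467 for both).

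In the small subunit, 1 of 26 genes (3.85%) passed, near the 2.71% of all tested genes called higher. Mrps24 (NM_026080, chromosome 11, 5603986 to 5607702, minus strand), a counterpart of a bacterial small subunit protein, had 83.1 and 99.0 CPM in BAT, 63.7 and 58.1 CPM in iWAT, and 48.5 and 50.3 CPM in eWAT. The depots did not overlap, and the log2 fold change of BAT over eWAT was 0.88 ± 0.17 (edgeR adjusted p = 0.0406). The medians of the subunits were close, at 0.69 for the 26 small subunit genes and 0.73 for the 49 tested large subunit genes. By origin, 4 of 47 tested genes with a bacterial counterpart (8.51%) and 4 of 28 without one (14.3%) passed, Mrps36 left aside, with medians of 0.70 and 0.76. With the replicate block, 35 of 49 large and 13 of 26 small subunit genes were higher, as were 28 of 47 genes with a bacterial counterpart and 20 of 28 without one. In that fit 10.9% of all tested genes were called higher. The differences between these subgroups were not tested.

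**Figure D3:**
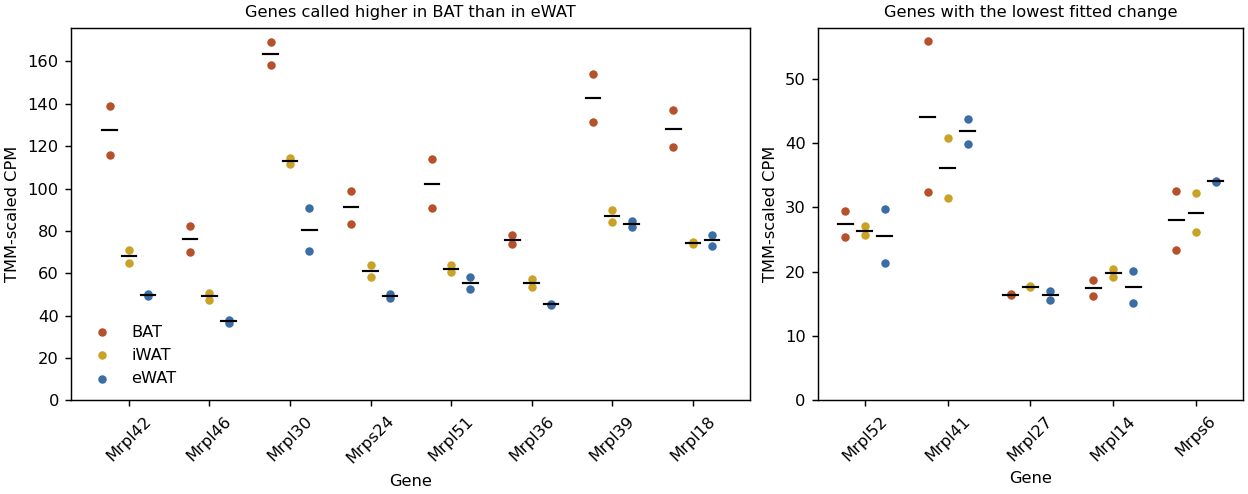
TMM-scaled CPM (y axis) is shown for each library of BAT, iWAT and eWAT (2 points per depot, black bars are their mean) for the 8 genes called higher in BAT than in eWAT (left) and the 5 genes with the lowest fitted change (right). In the left panel both BAT libraries lie above both eWAT libraries for each gene, and in the right panel the depots are close or overlap.

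Several members with larger fitted differences did not pass the test. Mrpl47, with a bacterial counterpart in the large subunit, had 67.2 and 99.0 CPM in BAT, 36.3 and 52.0 CPM in iWAT, and 26.1 and 37.5 CPM in eWAT, and its log2 fold change of BAT over eWAT was 1.38 ± 0.31 (edgeR adjusted p = 0.0521; 0.00136 with the replicate block). Mrpl15, also of the large subunit, had 100.4 and 187 CPM in BAT, 73.6 and 90.5 CPM in iWAT, and 57.8 and 72.2 CPM in eWAT, with a log2 fold change of 1.14 ± 0.32 (edgeR adjusted p = 0.087; 0.00632 with the block). In both genes the second library was the higher one in every depot. Mrps27, a small subunit protein without a bacterial counterpart, had 34.9 and 58.5 CPM in BAT, 21.4 and 26.4 CPM in iWAT, and 22.8 and 20.8 CPM in eWAT. Its log2 fold change of 1.09 ± 0.30 had an edgeR adjusted p of 0.0809, and 0.0186 with the block. Mrpl12, the stalk protein that in human mitochondria also binds the mitochondrial RNA polymerase, had 43.3 and 86.4 CPM in BAT, 38.0 and 43.5 CPM in iWAT, and 38.9 and 35.8 CPM in eWAT. The second BAT library of Mrpl12 stood far above the first, and the log2 fold change of 0.78 ± 0.33 (edgeR adjusted p = 0.2) was 0.21 without it and 1.21 without the first.

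Mrps36 had the highest fitted log2 fold change, 1.68 ± 0.50 (edgeR adjusted p = 0.0967; 0.0473 with the block), from few reads. Its counts were 23 and 20 in BAT, 11 and 14 in iWAT, and 10 and 5 in eWAT, and 3 pseudogenes share its name, so reads could be split among copies. Mrpl23, the 1 member that was not tested, had counts of 2 and 1 in BAT, 1 and 0 in iWAT, and 1 and 1 in eWAT, all at or under 3 counts, so no difference was detectable at this depth. It too has a pseudogene of the same name, as do Mrpl27 and Mrpl48.

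A small set of members was at similar levels in all depots. Mrpl52 had 25.4 and 29.4 CPM in BAT, 27.2 and 25.6 CPM in iWAT, and 29.8 and 21.3 CPM in eWAT, with a log2 fold change of BAT over eWAT of 0.09 ± 0.24. Mrpl41 had 32.3 and 55.8 CPM in BAT, 31.5 and 40.7 CPM in iWAT, and 39.8 and 43.8 CPM in eWAT (0.06 ± 0.30). For both, neither of which has a bacterial counterpart, the depots overlapped and the sign of the difference turned under other scalings or without single libraries. Mrpl27, the counterpart of a bacterial protein near the peptidyl transferase centre, had 16.5 and 16.4 CPM in BAT, 17.6 and 17.8 CPM in iWAT, and 15.6 and 17.1 CPM in eWAT (0.01 ± 0.23). Mrpl14, with a bacterial counterpart, had 16.3 and 18.7 CPM in BAT, 19.2 and 20.4 CPM in iWAT, and 15.1 and 20.2 CPM in eWAT (-0.02 ± 0.25). These 2 genes also changed sign between settings, and in both BAT lay below iWAT in each library. Mrps6, a small subunit protein with a bacterial counterpart, had 23.5 and 32.5 CPM in BAT, 26.2 and 32.2 CPM in iWAT, and 34.0 and 34.1 CPM in eWAT. Its log2 fold change of BAT over eWAT was -0.29 ± 0.24 (edgeR adjusted p = 0.489), the lowest of the members. Mrps6 overlaps Slc5a3 on the same strand, so reads of these genes may not be separable. In all, 8 of 77 members overlapped another gene, on the other strand in the case of Mrpl41, and the labels do not give the strandedness of the libraries, so reads of overlapping genes may be mixed.

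The 3 paralogues of the bacterial S18 protein sit in different places in the mammalian mitoribosome, Mrps18a in the large subunit and Mrps18b and Mrps18c in the small one. Mrps18a had 76.9 and 105 CPM in BAT, 68.6 and 80.2 CPM in iWAT, and 51.7 and 65.4 CPM in eWAT, a log2 fold change of BAT over eWAT of 0.63 ± 0.23 (edgeR adjusted p = 0.15; 0.0182 with the replicate block). Mrps18b had 31.5 and 27.9 CPM in BAT, 16.1 and 25.4 CPM in iWAT, and 18.6 and 23.0 CPM in eWAT (0.52 ± 0.28, edgeR adjusted p = 0.313). Mrps18c had 25.4 and 35.6 CPM in BAT, 21.4 and 23.9 CPM in iWAT, and 22.4 and 19.1 CPM in eWAT (0.54 ± 0.25, edgeR adjusted p = 0.235). All 3 had both BAT libraries above both eWAT libraries, and none passed the test. Per length, the mean level in BAT was 105 CPM per kb for Mrps18a, 60.7 for Mrps18c and 28.2 for Mrps18b, and the order was the same in iWAT (86.1, 45.1 and 19.7) and eWAT (67.8, 41.3 and 19.8).

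The second comparison set BAT against iWAT. The median log2 fold change of the members was 0.52 (1.44-fold), against -0.02 for all tested genes, and 72 of 76 were fitted above 0. Both BAT libraries lay above both iWAT libraries for 61 members and below for 2, Mrpl14 and Mrpl27, against 23.9% and 24.1% of all tested genes. The edgeR test called 0 members higher and 0 lower, where 0.145% of tested genes were called higher and 0.895% lower, and at an unadjusted p below 0.05 it had 35 higher and 0 lower, against 7.88% and 8.75% of all tested genes. The smallest edgeR adjusted p was 0.0865, for Mrpl42, with a log2 fold change of 0.90 ± 0.17. The highest fitted values were 0.99 ± 0.47 for Mrps36, 0.95 ± 0.29 for Mrps27 and 0.91 ± 0.23 for Mrpl1, a large subunit gene with 91.5 and 130.4 CPM in BAT and 63.3 and 54.6 CPM in iWAT. DESeq2 called 2 members higher and 0 lower (1.53% and 2.82% of all genes), and limma voom 0 in either direction (0.0597% and 0.528%). The authors' deposited table had 11 of 77 members higher and 0 lower at an adjusted p below 0.05, where 2.91% of all its 20295 genes, with no filter on low counts, were higher. With the replicate number as a block, 24 were higher, with log2 fold changes from 0.61 to 0.93, and 0 lower, against 4.55% and 5.89% of all tested genes. Of the genes described above, Mrpl42, Mrpl46, Mrpl51, Mrpl39, Mrpl18, Mrpl47, Mrpl15, Mrps27 and Mrpl1 were among those 24 (adjusted p from 0.0115 for Mrpl47 to 0.0467 for Mrps27).

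The third comparison set the white depots against each other. The median log2 fold change of iWAT over eWAT was 0.14 for the members and 0.01 for all tested genes, and 65 of 76 members were fitted above 0. Both iWAT libraries lay above both eWAT libraries for 30 members and below for 3 (Mrpl48, Mrpl49 and Mrps6), against 19.2% and 18.8% of all tested genes. The edgeR test called 0 members higher and 0 lower, as it did for all genes (0% each), with 3 members higher and 0 lower at an unadjusted p below 0.05, against 3.9% and 5.44% of all tested genes. The smallest adjusted p was 0.455, for Mrpl30 (0.48 ± 0.18). DESeq2, limma voom and the fit with the replicate block also called 0 members. Of all tested genes, DESeq2 called 0.963% higher and 1.6% lower, voom 0.00852% higher and 0% lower, and the block 1.66% higher and 3.14% lower. The BAT comparisons share the BAT libraries, and each pair of comparisons shares a depot, so their values are not independent. By mean CPM, the order was BAT above iWAT above eWAT for 62 of the 76 members, an order held by 25.5% of all tested genes. It was BAT above eWAT above iWAT for 10 members, an order held by 13.3% of all tested genes.

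Levels were compared between genes per length, as mean CPM per kb of counted length. The highest mean over the depots was that of Mrpl20, a large subunit protein with a bacterial counterpart, at 345 CPM per kb in BAT, 231 in iWAT and 186 in eWAT. Mrpl33 followed with 242, 173 and 146 CPM per kb in BAT, iWAT and eWAT, then Mrpl30 with 237, 163 and 117, and Mrpl42 with 191, 102 and 74.5. By library, Mrpl20 had 194 and 265 CPM in BAT, 148 and 159 CPM in iWAT, and 113 and 134 CPM in eWAT, and its log2 fold change of BAT over eWAT was 0.89 ± 0.21 (edgeR adjusted p = 0.0597; 0.00585 with the block). Mrpl33 had 116 and 109 CPM in BAT, 95.7 and 65.6 CPM in iWAT, and 85 and 51.5 CPM in eWAT (0.72 ± 0.29, edgeR adjusted p = 0.189; 0.0222 with the block). Unlike Mrpl20, Mrpl33 was lower in the second library of every depot. At the other end stood Mrpl48 with 14.5, 10.9 and 12.7 CPM per kb in BAT, iWAT and eWAT, the small subunit gene Mrps33 with 11.3, 8.42 and 5.77, Mrps36 with 8.81, 4.34 and 2.64, and Mrpl23 with 0.692, 0.207 and 0.444. Mrps33 had 12.3 and 11.5 CPM in BAT, 9.14 and 8.55 CPM in iWAT, and 5.59 and 6.54 CPM in eWAT, with no overlap between depots and a log2 fold change of 0.97 ± 0.29 (edgeR adjusted p = 0.103). Mrpl48 had 13.3 and 14.1 CPM in BAT, 10.1 and 10.6 CPM in iWAT, and 11.9 and 12.2 CPM in eWAT (0.19 ± 0.25, edgeR adjusted p = 0.691). The order of the genes was similar in each depot, with a Spearman correlation of levels across the 77 genes, which are not independent replicates, of 0.936 between BAT and eWAT, 0.956 between BAT and iWAT and 0.983 between iWAT and eWAT. The order between genes was not tested.

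**Figure D4:**
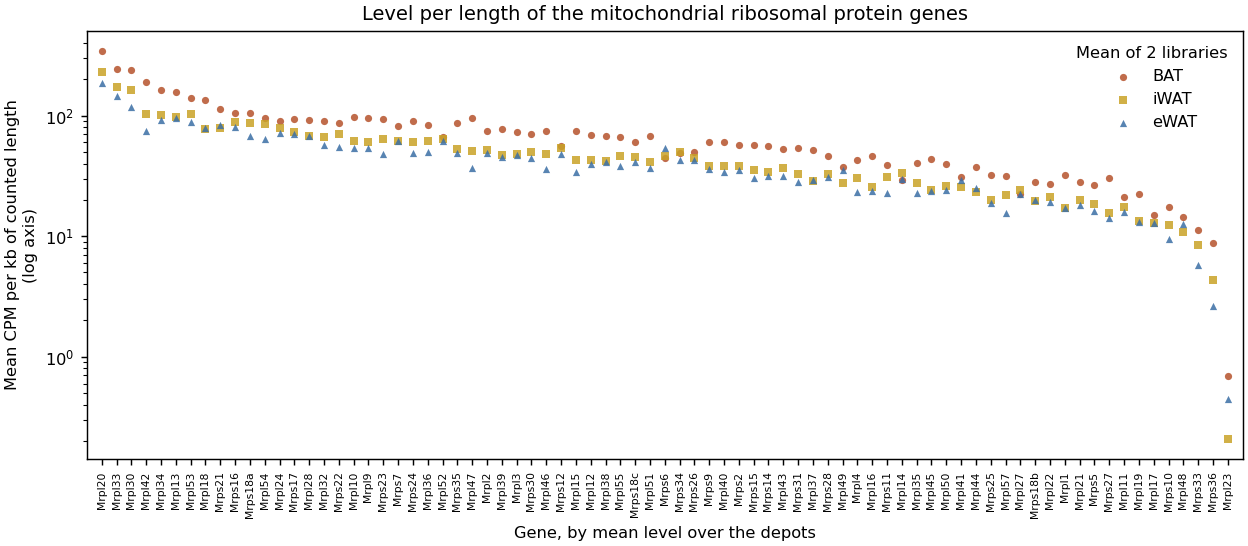
Mean CPM per kb of counted length (y axis, log scale) is shown for all 77 genes (x axis), ordered by their mean over the 3 depots, with 1 point for the mean of the 2 libraries of each depot. BAT lies highest for most genes, and levels run from 254 CPM per kb for Mrpl20 to 0.448 for Mrpl23 averaged over the depots.

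The neighbours that start within 1000 bases of a member on the other strand did not all share its difference. Of the 21 such genes that are not members and were tested, 1 was called higher in BAT than in eWAT and 0 lower, against 2.71% and 3.75% of all tested genes. Their median log2 fold change was 0.15, against 0.65 for the 21 members beside them. With the replicate block, 3 were called higher and 0 lower, against 10.9% and 12.8% of all tested genes. These counts were not tested against those shares. The 1 called was Ndufb5, a respiratory complex I subunit whose start lies 307 bases from that of Mrpl47, at 1.01 ± 0.20 (edgeR adjusted p = 0.0398). The other 2 called with the block were Peo1, the mitochondrial DNA helicase beside Mrpl43, at 1.01 ± 0.46 (edgeR adjusted p = 0.231; 0.0132 with the block), and Ptcd2, an RNA-binding protein of mitochondria beside Mrps27, at 0.92 ± 0.28 (edgeR adjusted p = 0.104; 0.00565 with the block). Neighbours of similar size in the other direction were Eme1 beside Mrpl27 at -0.97 ± 0.50 (edgeR adjusted p = 0.278) and Gga3 beside Mrps7 at -0.95 ± 0.35 (edgeR adjusted p = 0.157), neither of which passed in either fit. Of the neighbours of called genes, Mitd1 beside Mrpl30 was at 0.24 ± 0.30, Tcp1 beside Mrpl18 at 0.21 ± 0.16 and Ncapd2 beside Mrpl51 at -0.33 ± 0.30, none of which passed.

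The lists of other genes of the mitochondrial translation system also had medians above 0. For comparison, 2.71% of all tested genes were called higher in BAT than in eWAT and 3.75% lower. With the replicate block these shares were 10.9% and 12.8%. Of 6 mitoribosome subunits that carry other names, 2 were higher in BAT than in eWAT and 0 lower (median log2 fold change 0.55), and 4 were higher with the replicate block. Ptcd3, a pentatricopeptide protein of the small subunit, had 263 and 386 CPM in BAT, 149 and 141 CPM in iWAT, and 126 and 133 CPM in eWAT (1.32 ± 0.22, edgeR adjusted p = 0.0313). Chchd1, also of the small subunit, had 98.7 and 101 CPM in BAT, 62.1 and 56.6 CPM in iWAT, and 55.4 and 56.6 CPM in eWAT (0.84 ± 0.16, edgeR adjusted p = 0.0372). The small subunit protein Aurkaip1 was at 0.59 ± 0.17 (edgeR adjusted p = 0.0869; 0.0237 with the block).

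With the replicate block, 11 of 18 translation factors were higher and 0 lower, against 10.9% and 12.8% of all tested genes. Without the block, 1 of the 18 (5.56%) was higher and 0 lower, against 2.71% and 3.75% of all tested genes, with a median of 0.84. That was Mtif2, the initiation factor that places the first tRNA, with 128 and 165 CPM in BAT, 72.6 and 74.2 CPM in iWAT, and 59.9 and 65.7 CPM in eWAT (1.22 ± 0.19, edgeR adjusted p = 0.0284). The glutaminyl-tRNA amidotransferase subunit Gatb (0.83 ± 0.19) and the elongation factor Tufm (0.84 ± 0.24) passed only with the block. Among 17 mitochondrial aminoacyl-tRNA synthetases, which load tRNAs with amino acids, 1 was higher and 0 lower (median 0.59; 8 higher with the block), the cysteine enzyme Cars2 at 1.14 ± 0.25 (edgeR adjusted p = 0.0494). Of 31 genes of mitoribosome assembly and mitochondrial RNA processing, 4 were higher and 0 lower (median 0.55; 11 higher and 1 lower with the block). They included the rRNA methyltransferase Nsun4 at 1.10 ± 0.22 (edgeR adjusted p = 0.0416), the assembly factor Fastkd2 at 0.85 ± 0.16 (edgeR adjusted p = 0.0398) and the RNA granule protein Grsf1 at 1.35 ± 0.28 (edgeR adjusted p = 0.0436).

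Of 10 genes of mitochondrial DNA transcription and replication, 0 passed in edgeR, with a median of 0.80, where 2.71% of all tested genes were higher and 3.75% lower. At an unadjusted p below 0.05 in edgeR, 3 were higher and 0 lower, against 12.5% and 13.4% of all tested genes. With the block, 4 were higher and 0 lower, against 10.9% and 12.8% of all tested genes. Tfam, which packages mitochondrial DNA and starts its transcription, had 90.7 and 139 CPM in BAT, 61.8 and 80.2 CPM in iWAT, and 58.9 and 66.8 CPM in eWAT (0.86 ± 0.26, edgeR adjusted p = 0.0999; 0.00918 with the block). Of 9 regulators of mitochondrial gene expression, 1 was higher and 0 lower (median -0.04; 3 higher and 1 lower with the block). That gene was Gabpa, whose product binds the ETS motif given above, with 344 and 511 CPM in BAT, 190 and 228 CPM in iWAT, and 144 and 169 CPM in eWAT (1.45 ± 0.25, edgeR adjusted p = 0.032). The nuclear receptor Esrra was at 0.99 ± 0.32 (edgeR adjusted p = 0.118; 0.00734 with the block) and the coactivator Pprc1 at -1.12 ± 0.39 (edgeR adjusted p = 0.134; 0.0351 with the block).

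The nuclear genes of the respiratory chain and ATP synthase had larger differences between BAT and eWAT: 34 of 79 tested were higher and 0 lower, with a median log2 fold change of 1.00, and 68 were higher and 1 lower with the replicate block. Cytosolic ribosomal protein genes, of which 62 of 83 were tested, had a median of -0.22, with 2 higher (3.23%) and 0 lower. Of all tested genes, 2.71% were called higher and 3.75% lower, and 10.9% and 12.8% with the block. Per length, the median level of the mitochondrial ribosomal protein genes was 60.7 CPM per kb in BAT, 42.9 in iWAT and 36.5 in eWAT. For the respiratory chain genes these medians were 456, 265 and 215 CPM per kb, and for the cytosolic ribosomal protein genes 27.3, 38.2 and 35.0. The cytosolic values cover only the 62 genes that passed the filter on low counts, and the treatment of multi-mapping reads was not given. Levels and fold changes of genes with similar copies elsewhere in the genome may therefore be incomplete, which was not tested. Between BAT and iWAT the median log2 fold changes were 0.52 for the mitochondrial ribosomal, 0.73 for the respiratory chain and -0.35 for the cytosolic ribosomal protein genes. These differences between lists were not tested.

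**Figure D5:**
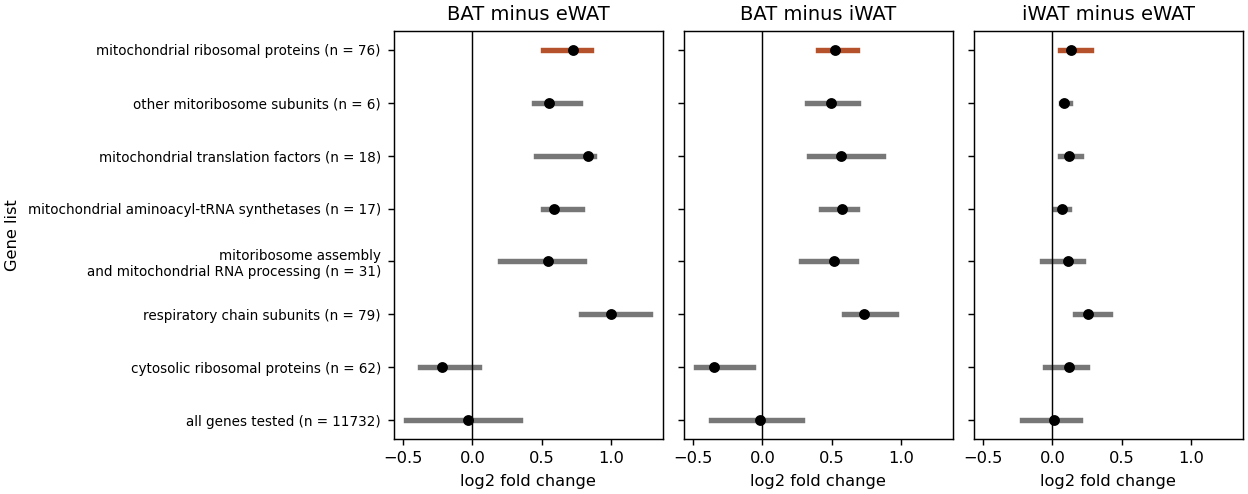
Black points are the median log2 fold change (x axis) of each gene list (y axis, with the number of tested genes) and bars run from the first to the third quartile, for BAT minus eWAT, BAT minus iWAT and iWAT minus eWAT. The mitochondrial ribosomal protein genes had medians of 0.73, 0.52 and 0.14, above those of all tested genes (-0.03, -0.02 and 0.01) and below those of the respiratory chain subunits (1.00, 0.73 and 0.26).

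Markers of other cells also differed between depots. Between BAT and eWAT, edgeR called 2.71% of all tested genes higher and 3.75% lower, and 10.9% and 12.8% with the replicate block. At an unadjusted p below 0.05 in edgeR the shares were 12.5% and 13.4%. Over 12 adipocyte genes the summed level was 126447 and 135875 CPM in BAT, 106983 and 86794 CPM in iWAT, and 73139 and 71137 CPM in eWAT, while 0 of 12 were called between BAT and eWAT by edgeR (3 higher and 0 lower at an unadjusted p below 0.05; 2 higher with the replicate block). The sums do not stand for the list gene by gene, since 9 of the 12 were fitted below 0 for BAT over eWAT, with a median log2 fold change of -0.11. Over 12 preadipocyte and fibroblast markers it was 3854 and 2836 CPM in BAT, 19273 and 20561 CPM in iWAT, and 16655 and 18214 CPM in eWAT. Of the 11 of these that were tested, 5 were lower and 1 was higher in BAT than in eWAT (9 lower and 1 higher with the replicate block). In BAT against iWAT, 6 of these markers were lower and 0 higher, against 0.895% and 0.145% of all tested genes. Macrophage markers, 12 in all, summed to 442 and 94.8 CPM in BAT, 658 and 192 CPM in iWAT, and 4785 and 2151 CPM in eWAT, and 6 of the 11 tested were lower in BAT than in eWAT (all 11 in the blocked fit). No marker of these lists was at 0 in all libraries. Brown adipocyte markers summed to 6704 and 12118 CPM in BAT, 2038 and 1789 CPM in iWAT, and 451 and 623 CPM in eWAT, with 8 of 10 higher in BAT than in eWAT. BAT had less preadipocyte marker RNA than either white depot and higher summed levels of the mitochondrial ribosomal protein genes. Between the white depots, iWAT had higher sums of both lists than eWAT, with 7 of the 11 tested preadipocyte and fibroblast markers fitted above 0 and 4 below. The part of the cell mixture in these differences was not tested.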

How the data were processed

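The deposited count table holds whole-number read counts per gene and library with no normalization applied, per the file headers. Reads were aligned with STAR to mm9, per the submitters' processing notes. Versions, the counting program and the treatment of multi-mapping reads were not given in the sources at hand. The counted length of each gene is a value in bases that the authors deposited beside the counts, and it was used for levels per length. The authors' deposited table of their own comparisons holds log2 fold changes and log2 values per library, and p-values, with the tool not stated. Its log2 fold changes correlated with those computed here at 0.997 to 0.999 across genes, and its calls of members are given beside those of the fits made here. Total RNA had been depleted of ribosomal RNA, per the labels' protocols.

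Counts of all 6 libraries were fitted with edgeR 4.0.16 (filterByExpr, TMM, quasi-likelihood F test, two-sided, depot as the only term), with Benjamini-Hochberg adjustment over 11732 genes and calls at an adjusted p below 0.05. Standard errors were derived from the log2 fold change and its F statistic. Where 2 libraries are set against 2, an exact permutation test cannot go below 0.333, so single values carry no p. Alternatives were other scalings, filters on low counts, DESeq2 1.42.0, limma 3.58.1 (voom), fits of 2 depots, single libraries left out, and the replicate number as a block. Replicate numbers come from the labels, which do not say that a number marks a shared animal or day. The differences between replicates correlated across genes at 0.447 (BAT and iWAT), 0.411 (BAT and eWAT) and 0.555 (iWAT and eWAT). These correlations were taken as a hint of pairing for the alternative with a block only, and the main fit did not pair the libraries. The first library was the deeper one in each depot, and the part of depth in the correlations was not tested. Python 3.11.15 and R 4.3.3 were used, and the script was tested on simulated data.

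The members and gene lists were chosen with earlier results of these data known. Named members were those called, the 5 with the highest and the 5 with the lowest fitted change between BAT and eWAT, the 4 highest and the 4 lowest in level per length, the Mrps18 paralogues, Mrpl12, Mrps36 and the untested member. From each other list up to 3 genes with the smallest p could be named. Mrps11, Mrpl1 and the neighbouring genes were named after their values were seen. Protein sequences were not used here. Coordinates of genes are mm9, and promoters come from RefSeq on GRCm38.p6.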

Additional observations from a re-analysis of the deposited data

How the results depend on the processing

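The count of members called higher in BAT than in eWAT, 8 in the edgeR fit described above, was 4 with total counts only, 27 with no filter on low counts, 25 with DESeq2, 4 with limma voom, 1 in a fit of the 2 depots alone (2.14%, 4.34%, 5.11%, 2.06% and 0.350% of all genes tested in each) and 49 with the replicate block, and it ran from 0 to 17 when single libraries were left out. The block and the fits with fewer libraries change the residual spread by construction, and the cause of the other shifts was not tested. Between BAT and iWAT the count of members was 2 with no filter, 2 with DESeq2 and 24 with the replicate block. The shares of all genes tested in these fits were 1.41%, 1.53% and 4.55%. No member was called lower in any contrast under any alternative run that kept both libraries of each depot compared. The members' median log2 fold change ran from 0.52 to 0.91 between BAT and eWAT and from 0.37 to 0.74 between BAT and iWAT over the fits with a library left out. The lower end came without the second BAT library and the upper end without the first. With total counts only, the median of all genes was -0.18 and that of the members 0.58, a gap of 0.76, as in the TMM fit.

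The sign turned in genes near 0. Between BAT and eWAT, Mrpl52 was at -0.059 with total counts and between -0.12 and 0.36 with a library left out, and Mrpl41 was at -0.10 with total counts, -0.026 with voom and between -0.37 and 0.42 with a library left out. Mrpl27 was at -0.0021 with upper-quartile factors, -0.13 with total counts, -0.0025 with no filter and between -0.048 and 0.082 with a library left out, and Mrpl14 ran from -0.21 to 0.21. Between BAT and iWAT, Mrpl52 was at -0.041 with total counts, and with a library left out Mrpl52 ran from -0.051 to 0.16, Mrpl41 from -0.15 to 0.63 and Mrps6 from -0.31 to 0.16. Mrps36 and Mrpl23 had the lowest levels per length of the members. The parts of depth and of reads split among copies in their low counts were not tested. Protein features named among the planned descriptions were not run.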
